A study of Mus musculus with 5 samples.

Results

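The genes described here are 8 genes of sterol and fatty acid synthesis, Hmgcs1, Sqle, Idi1, Fdft1, Lss, Insig1, Srebf2 and Scd2, taken by symbol from a table of 41388 genes in sorted mouse microglia, the resident macrophages of the brain. All 8 were found in the table, and 7 of them passed the filter on low counts. In edgeR 0 of the 7 passed the test between A20-deficient and control microglia. The fatty acid desaturase Scd2 came nearest: it lay below both controls in every A20-deleted library and was 1.59-fold lower. The sterol enzymes Hmgcs1, Sqle and Fdft1 had fold differences of 1.09 or less, and Lss was 1.21-fold lower without passing. The difference of Fdft1 is uncertain, because its exons share bases with a gene on the other strand.

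The protein A20 is the product of Tnfaip3 and a brake on inflammatory NF-kB signalling, and the study asked how its loss changes microglia. The 2 control libraries came from C57Bl/6 mice of genotype eYFP-A20fl/wt Cx3cr1-CreERT2/+, called partially deficient, with 1 floxed and 1 wild-type A20 allele. The 3 A20-deleted libraries carry the genotype label eYFP-A20Dmg and are called fully deficient in the series' design text. All mice were 4 weeks old and had received 2 mg tamoxifen at postnatal days 14 and 16. Brain cells freed with papain were sorted for eYFP, a yellow fluorescent protein. Cx3cr1-CreERT2 is a tamoxifen-inducible Cre recombinase expressed from the Cx3cr1 locus, which microglia share with other macrophages and with monocytes. Whether each library came from its own animal is not stated, and p-values therefore describe the scatter among these libraries, part of which may be technical.

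Cholesterol is built from acetyl-CoA through mevalonate, squalene and lanosterol, and the enzymes of this route share a master regulator, the transcription factor SREBP2 (gene Srebf2). When sterols are plentiful, INSIG proteins hold SREBP2 and its escort SCAP in the endoplasmic reticulum. When sterols fall, SREBP2 is cleaved and raises the enzymes and Insig1 itself, while its relative SREBP1 acts more on fatty acid synthesis. The brain makes its own cholesterol because lipoproteins of the blood do not cross the blood-brain barrier, and microglia also take up lipid from myelin and dying cells.

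The libraries held between 9726334 and 15275199 counts, so that 3 counts corresponded to between 0.192 and 0.306 CPM (counts per gene relative to the library total after TMM scaling). All pairs of libraries differed by more than sampling noise. The mitochondrial genome's transcripts made up 4.63% and 3.56% of A20-deleted replicates 2 and 3 and between 0.847% and 1.19% in the other libraries. Genes longer than the median took 37.8% and 38.5% of the tested genes' counts in those replicates and between 44.9% and 47.9% in the others. Control replicate 1 and A20-deleted replicate 1 held 780 and 616 counts of the female transcript Xist, and the other libraries held 0. The targeted gene Tnfaip3 gave 454.1 and 94.7 CPM for control replicates 1 and 2 and 294.6, 276.9 and 347.5 CPM for A20-deleted replicates 1 to 3, a difference of 0.16 in log2 (SE 0.55) that edgeR did not call (adjusted p = 0.881). Which exons Cre removes is not given, so whole-gene counts are no check of the deletion. The 10 microglia markers summed to 53174 and 58593 CPM in the controls and to between 38066 and 42792 CPM in the A20-deleted libraries. Of the 10, 1 was called lower, and 9 lay below both controls in every A20-deleted library and 0 above. Over all genes tested 18.5% lay below and 21.8% above. Fewer microglia in the sort and less of these transcripts per cell cannot be told apart in bulk RNA.

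Promoters of the sterol genes are known for a sterol regulatory element, the SREBP binding motif, beside boxes for NF-Y and Sp1, and the sequences are shown for that reason. The RefSeq promoter table (GRCm38.p6) matched 5 of the 8 genes: Hmgcs1, Idi1, Lss, Insig1 and Srebf2. Sqle, Fdft1 and Scd2 were not matched. Below are the 250 bases before the annotated start of Hmgcs1 (chr13:119690101-119690350, plus strand), Srebf2 (chr15:82147019-82147268, plus strand) and Insig1 (chr5:28071162-28071411, plus strand). These starts, from which motif distances are counted, are those of RefSeq and differ from the GENCODE gene positions given further on. By GENCODE Srebf2 begins at 82147181 and Insig1 at 28071363, inside the printed stretches, and Hmgcs1 begins at 119690379, after its stretch. Capitals mark TCACNCCAC, its shorter form TCACNCC and the NF-Y box CCAAT, which reads ATTGG where it lies on the other strand.
Hmgcs1: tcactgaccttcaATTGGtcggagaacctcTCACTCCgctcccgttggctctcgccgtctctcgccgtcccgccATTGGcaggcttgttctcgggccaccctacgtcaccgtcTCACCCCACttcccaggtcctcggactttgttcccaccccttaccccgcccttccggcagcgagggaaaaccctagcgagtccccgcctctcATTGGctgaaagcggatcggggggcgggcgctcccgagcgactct
Srebf2: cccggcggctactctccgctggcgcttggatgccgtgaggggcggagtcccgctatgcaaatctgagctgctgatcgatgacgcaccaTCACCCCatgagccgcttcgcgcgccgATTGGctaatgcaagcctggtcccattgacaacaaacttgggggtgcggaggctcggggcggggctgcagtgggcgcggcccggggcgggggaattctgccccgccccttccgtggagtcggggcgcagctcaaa
Insig1: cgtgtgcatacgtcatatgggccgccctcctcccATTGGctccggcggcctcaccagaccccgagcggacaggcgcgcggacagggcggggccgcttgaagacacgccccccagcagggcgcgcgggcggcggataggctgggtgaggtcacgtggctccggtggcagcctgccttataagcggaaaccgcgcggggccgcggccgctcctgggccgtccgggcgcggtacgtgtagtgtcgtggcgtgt

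Motifs were searched as exact letters on both strands of 300-base windows, 250 bases before to 50 after the start. The sterol regulatory element TCACNCCAC was found in 1 of the 5 windows, that of Hmgcs1 from base -137 to base -129, and in 1.24% of all 32851 windows. The shorter TCACNCC, chosen after the sequences were seen and contained in every longer match, was found in 2 of 5, Hmgcs1 and Srebf2, and in 15.6% of all windows. The Srebf2 match lay from base -162 to base -156. CCAAT was found in 5 of 5 windows and 37.4% of all, the GC box GGGCGG, read by Sp1, in 5 of 5 and 35.7%, and the E-box CANNTG in 5 of 5 and 72.3%. In Hmgcs1 an E-box shares bases with a CCAAT match. In the 250 bases before the start the share of G and C was 64.8% in Hmgcs1, 67.6% in Srebf2, 72.8% in Insig1, 73.6% in Lss and 51.2% in Idi1, beside a median of 52.4% over the same 250 bases of all promoters. A match is a description of letters and does not show that a factor binds.

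**Figure D1:**
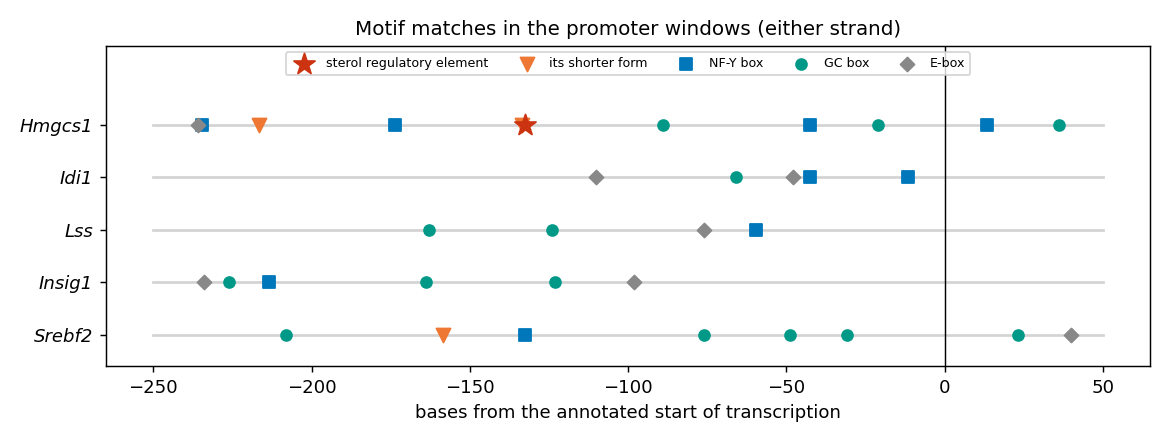
Matches of 5 motifs in the promoter windows of the 5 genes with a RefSeq entry; the horizontal axis is the distance in bases from the annotated start of transcription, and each symbol is the middle of a match on either strand. The full sterol regulatory element was found in Hmgcs1 alone among these 5 windows, and every window held a CCAAT and a GC box match.

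Levels were set against each other per length, as CPM per kilobase of exon. Scd2 led in all 5 libraries, at 42.8 ± 2.07 CPM per kilobase in the controls (SD, n = 2) and 26.9 ± 1.97 in the A20-deleted group (SD, n = 3), and its range did not meet that of the next gene. Hmgcs1 and Srebf2 followed at 9.88 ± 0.358 and 9.92 ± 0.219 CPM per kilobase in the controls, and their ranges overlapped. Srebf2 and Insig1 also had overlapping ranges, Insig1 standing at 5.14 ± 1.51 in the controls. Fdft1, at 2.30 ± 0.396, lay below Insig1 and above Sqle in all 5 libraries. Sqle and Lss, at 1.001 ± 0.237 and 0.873 ± 0.00625, were not separated. Idi1 was last at 0.113 ± 0.0734 CPM per kilobase. The A20-deleted group kept this order by mean, except that Hmgcs1 stood above Srebf2.

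The groups were tested in edgeR (quasi-likelihood) over 12240 genes, with p-values adjusted over all of them and a threshold of 0.05. Of these genes 2.59% passed, 2.08% higher and 0.507% lower in the A20-deleted group. Among the members 0 of 7 tested were called in either direction, and 1 of 7 had an unadjusted p under 0.05, where 21.0% of all genes did. DESeq2 called 1 of the 7, Scd2, where it called 9.07% of all genes, and limma-voom called 0, where it called 1.72%. The log2 fold changes of the 7 ran from -0.67 to 0.19 with a median of -0.03, beside a median of 0.05 over all genes tested. For 6 of the 7 the 95% interval of the log2 fold change lay within 1 in both directions; Scd2 was the exception, with a lower bound of -1.03. The groups did not overlap in 1 of the 7, Scd2, and in 40.2% of all genes tested (21.8% higher and 18.5% lower in the A20-deleted group).

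**Figure D2:**
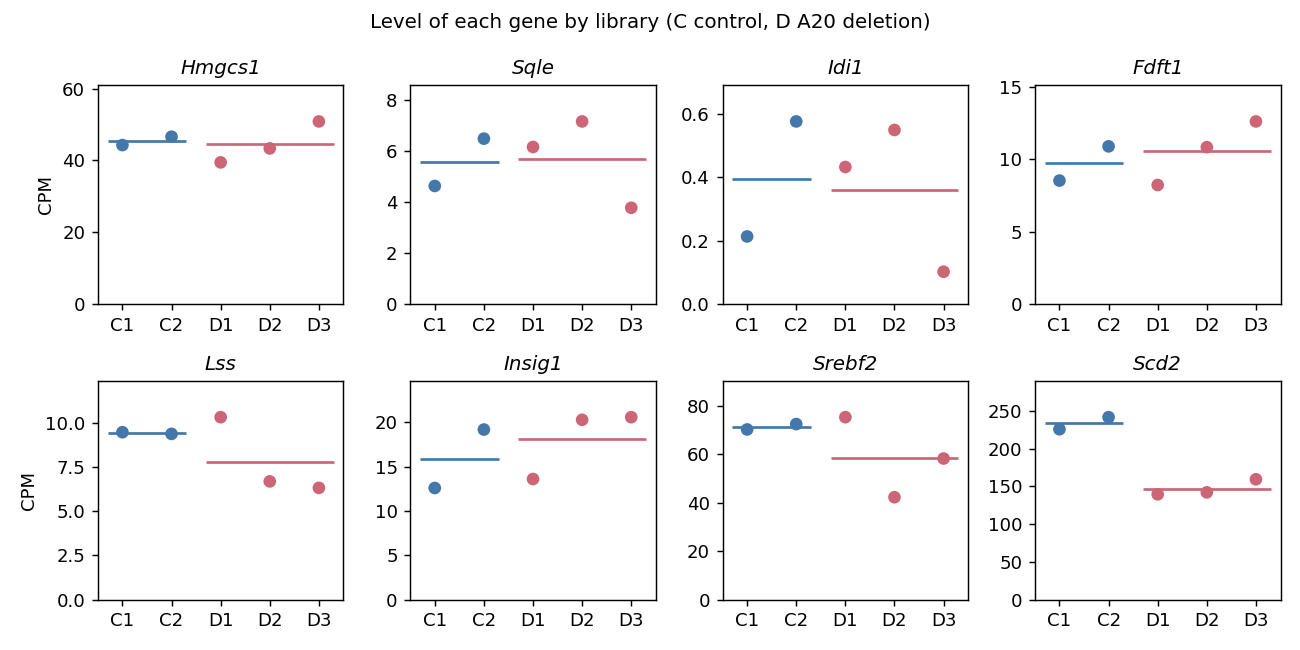
Level of each of the 8 genes in CPM (vertical axes from 0) in control replicates 1 and 2 (C1, C2) and A20-deleted replicates 1 to 3 (D1 to D3); points are libraries and lines are group means. Only in Scd2 do all 3 A20-deleted points lie below both control points, at 139.6 to 159.4 CPM against 225.7 and 241.7 CPM.

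Hmgcs1 (ENSMUSG00000093930, GRCm38 chromosome 13, 119690379 to 119708260) makes HMG-CoA from acetyl units, early in the pathway. It stood at 44.2 and 46.6 CPM in both controls and 39.4, 43.3 and 50.8 CPM in the A20-deleted libraries. The A20-deleted libraries lay on both sides of the controls. Its log2 fold change was -0.03 (SE 0.18, 95% interval -0.44 to 0.38, edgeR adjusted p = 0.933), which as a ratio runs from 0.736 to 1.31. This was the narrowest interval of the sterol enzymes among the members, and it rested on 455 to 726 counts per library.

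Idi1 (ENSMUSG00000058258, chromosome 13, 8885501 to 8892451), the isomerase that supplies the activated isoprene units, was close to undetected. Its counts were 3 and 9 in the controls and 5, 7 and 1 in the A20-deleted libraries, or 0.102 to 0.577 CPM. It failed the filter and was not tested, and a difference was not detectable at this depth.

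Fdft1 (ENSMUSG00000021273, chromosome 14, 63145150 to 63179578), squalene synthase, condenses farnesyl units into squalene. It was at 8.54 and 10.9 CPM in both controls and 8.23, 10.8 and 12.6 CPM in the A20-deleted libraries, and the groups overlapped. The log2 fold change was 0.12 (SE 0.27, 95% interval -0.51 to 0.74, edgeR adjusted p = 0.809). Its exons share 774 bases (18.3% of their length) with those of Ctsb on the other strand, a cathepsin gene at 3404 to 6044 CPM. The strand setting of the counting is not given, so the level of Fdft1 is uncertain.

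Sqle (ENSMUSG00000022351, chromosome 15, 59315077 to 59331192), squalene epoxidase, is a known control point of the pathway. It stood at 4.62 and 6.48 CPM in both controls and 6.15, 7.15 and 3.77 CPM in the A20-deleted libraries. The highest and the lowest value both came from the A20-deleted group. The log2 fold change was 0.04 with a 95% interval of -0.83 to 0.91 (SE 0.37, edgeR adjusted p = 0.96), the widest interval of the 7, from 37 to 101 counts per library.

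Lss (ENSMUSG00000033105, chromosome 10, 76531588 to 76557138), lanosterol synthase, closes the sterol rings. Its level was 9.46 and 9.37 CPM in the controls, 10.3 CPM in A20-deleted replicate 1 and 6.68 and 6.32 CPM in replicates 2 and 3. Replicates 2 and 3, which also had the higher mitochondrial shares, thus lay below the controls and replicate 1 above them. The log2 fold change was -0.28 (SE 0.29, 95% interval -0.95 to 0.40, edgeR adjusted p = 0.584). It was 0.14 with A20-deleted replicates 2 and 3 omitted and 0.055 with the mitochondrial share as a term. Lss has the longest exons of the members, 10787 bases, and with each library's trend with gene length removed the log2 fold change was -0.059. Neither direction passed.

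Srebf2 (ENSMUSG00000022463, chromosome 15, 82147181 to 82205379) encodes SREBP2 itself. It stood at 70.1 and 72.4 CPM in both controls, 75.2 CPM in A20-deleted replicate 1 and 42.2 and 58.2 CPM in replicates 2 and 3. Here too replicate 1 was above the controls and replicates 2 and 3 below them. The log2 fold change was -0.28 (SE 0.25, 95% interval -0.87 to 0.30, edgeR adjusted p = 0.514). Without A20-deleted replicate 1 it was -0.54 and passed (edgeR adjusted p = 0.0457), in a fit where 3923 genes passed and where the groups coincide with the mitochondrial shares. With replicates 2 and 3 omitted it was 0.088, with the mitochondrial share as a term 0.082, and with the length trend removed -0.14.

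Insig1 (ENSMUSG00000045294, chromosome 5, 28071363 to 28078662), the sterol-dependent anchor that is itself an SREBP2 target, was at 12.6 and 19.2 CPM in the controls. In the A20-deleted libraries it was at 13.6, 20.3 and 20.6 CPM. The low values were those of replicate 1 in both groups, the libraries with Xist, and the groups overlapped. The log2 fold change was 0.19 (SE 0.28, 95% interval -0.47 to 0.85, edgeR adjusted p = 0.702). Between libraries of the same sex the log2 ratio was 0.11 for replicate 1 and 0.08 and 0.10 for A20-deleted replicates 2 and 3 against control replicate 2.

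Scd2 (ENSMUSG00000025203, chromosome 19, 44293674 to 44306864) introduces the unsaturated bond that turns saturated into monounsaturated fatty acids, and it is a major stearoyl-CoA desaturase of the mouse brain. It stood at 225.7 and 241.7 CPM in both controls and 139.6, 142.1 and 159.4 CPM in the A20-deleted libraries. All 3 A20-deleted libraries were lower than both controls, and the 3 differed less among themselves than from either control. The mean ± SD was 233.7 ± 11.3 CPM over the 2 controls and 147.0 ± 10.8 CPM over the 3 A20-deleted libraries, a log2 fold change of -0.67 (SE 0.15, 95% interval -1.03 to -0.31). Its unadjusted p was 0.00295, and the edgeR adjusted p of 0.0769 did not pass. By unadjusted p it ranked 468 among the 12240 genes, and 1011 of them (8.26%) were lower with an unadjusted p under 0.05.

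The size of the Scd2 difference was similar in each pair of libraries of the same sex. The log2 ratio was -0.69 for A20-deleted replicate 1 against control replicate 1, and -0.77 and -0.60 for replicates 2 and 3 against control replicate 2. Over 18 other ways of processing the log2 fold change stayed between -0.76 and -0.60, and edgeR or the other tools gave adjusted p between 0.000674 and 0.423. It passed in 4 of the 18: with DESeq2, without a filter, with sex as a term and without A20-deleted replicate 1. In those fits 9.07%, 8.22%, 6.73% and 32.4% of all genes passed. With the mitochondrial share as a term it was -0.70, and with each library's trend with gene length removed -0.60 (edgeR adjusted p = 0.0868 and 0.0927).

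**Figure D3:**
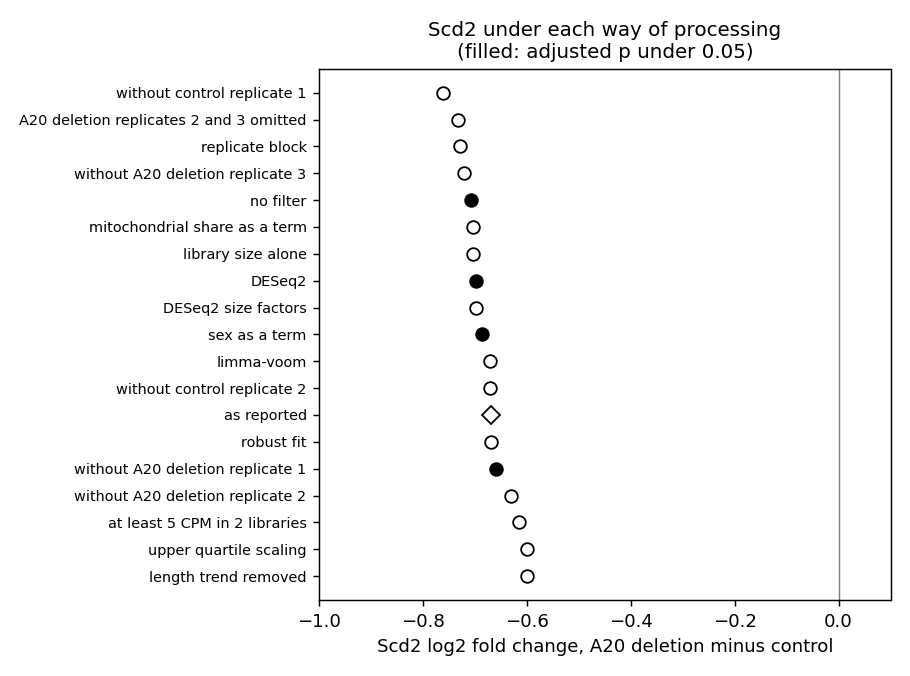
Log2 fold change of Scd2 (A20-deleted minus control, horizontal axis) under each way of processing (rows); filled symbols passed an adjusted p of 0.05 and the diamond is the value reported. All values lie between -0.76 and -0.60, and 4 of the 18 alternatives passed.

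Oligodendrocytes and astrocytes are rich in desaturase and sterol enzyme transcripts, and their markers were present at low levels. The 10 oligodendrocyte markers summed to 194.0 and 221.8 CPM in the controls and to 263.8, 371.6 and 369.9 CPM in the A20-deleted libraries. The 10 astrocyte markers summed to 180.6 and 266.3 CPM in the controls and to 200.6, 428.5 and 428.3 CPM in the A20-deleted libraries. The part of these cells in the levels of Scd2 and of the sterol enzymes was not tested. With 2 control and 3 A20-deleted libraries no pattern can be read within the groups. Among the markers of these and other cell types edgeR called 2 higher. They were the astrocyte gene Aldh1l1, at 1.64 and 2.31 CPM in both controls and 8.06, 9.67 and 17.9 CPM in the A20-deleted libraries (adjusted p = 0.0343), and the monocyte gene Plac8, at 2.99 and 2.63 CPM and 30.7, 16.7 and 27.1 CPM (adjusted p = 0.00792). Each was the only called gene of its list. The log2 fold changes of the astrocyte markers were all above 0, from 0.42 for Slc1a3 to 2.58 for Aldh1l1. For A20-deleted replicate 1 the astrocyte sum lay between those of the controls, and for replicates 2 and 3 above both. Of 10 astrocyte markers 2 lay above both controls in every A20-deleted library and 0 below. Of 7 tested monocyte and neutrophil markers 2 lay above and 1 below. The latter was Ccr2, at 11.5 and 8.21 CPM in the controls and 8.14, 5.19 and 5.50 CPM in the A20-deleted libraries. Of 10 border macrophage markers 5 lay above, and of 10 endothelial and mural markers 7 lay above and 1 below. Over all genes 21.8% lay above and 18.5% below. The summed levels of the border macrophage list and of the endothelial and mural list overlapped between the groups. The latter sum says little about its 7 higher markers, because Pecam1, the marker that lay below, was its largest term in every library. Pecam1 made up 50.6 of 62.0 CPM in control replicate 1 and 53.1 of 64.8 CPM in control replicate 2. For A20-deleted replicates 1 to 3 its part was 26.3 of 76.4, 35.2 of 61.8 and 28.0 of 64.8 CPM. T and NK cell markers summed to 0.640 and 1.219 CPM in the controls and to between 5.70 and 8.75 CPM in the A20-deleted libraries. The largest term in A20-deleted replicates 1 to 3 was Cd4, at 3.99 of 8.75, 2.67 of 6.29 and 2.75 of 5.70 CPM. The defining T cell markers Cd3e, Cd3d, Cd3g and Trac were listed at 0 in both controls. In the A20-deleted libraries they ran from 0.102 to 0.780 CPM, where 3 counts are 0.236 to 0.306 CPM, and they failed the filter. The part of the other cell types in the result was not tested.

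The related desaturase Scd1 did not follow Scd2. It stood at 5.76 and 6.03 CPM in both controls, 1.91 CPM in A20-deleted replicate 1 and 14.3 and 10.9 CPM in the other two. The A20-deleted libraries lay on both sides of the controls (log2 fold change 0.62, SE 0.70, edgeR adjusted p = 0.615). The copy Scd3 was listed at 0 in every library, and Scd4 had 0 counts in all but control replicate 1. How reads shared between these similar genes were counted is not given.

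Summed CPM of the sterol enzymes among the members (Hmgcs1, Idi1, Fdft1, Sqle and Lss) was 67.1 and 73.9 in the controls and 64.5, 68.5 and 73.6 in the A20-deleted libraries, and the groups overlapped. The sum over all 8 members was 375.5 and 407.1 CPM in the controls and 292.9, 273.2 and 311.8 CPM in the A20-deleted libraries, with Scd2 the largest term in every library.

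The other 17 sterol synthesis genes of the list were tested too, and edgeR, DESeq2 and limma-voom each called 0. At an unadjusted p under 0.05, 2 were higher and 1 was lower, where 21.0% of all genes were one or the other. Their median log2 fold change was 0.32, beside 0.05 for all genes. The groups did not overlap in 7 of the 17 (6 higher and 1 lower), beside 40.2% of all genes (21.8% higher and 18.5% lower). Mvk, mevalonate kinase, stood at 7.41 ± 0.317 CPM in the controls (SD, n = 2) and 15.5 ± 5.70 CPM in the A20-deleted group (SD, n = 3), with an edgeR adjusted p of 0.171. Pmvk, the kinase of the next step, stood at 5.71 ± 0.537 and 10.8 ± 2.32 CPM (edgeR adjusted p = 0.143). Both passed only without A20-deleted replicate 1 or, for Mvk, also without a filter, and with the mitochondrial share as a term the log2 fold change of Mvk was 0.43 in place of 1.06.

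Mvk has 2675 bases of exon and Pmvk 1713, and long genes held fewer counts in replicates 2 and 3. With the length trend removed the log2 fold changes were 0.87 for Mvk and 0.57 for Pmvk, in place of 1.06 and 0.92. A20-deleted replicate 1 also lay above both controls, at 9.01 CPM for Mvk and 8.49 CPM for Pmvk. The part of gene length in these differences was not tested. Cyp51, the lanosterol demethylase and the first enzyme after Lss, was at 22.5 ± 6.42 and 25.9 ± 5.85 CPM (log2 fold change 0.20, SE 0.27, edgeR adjusted p = 0.672).

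**Figure D4:**
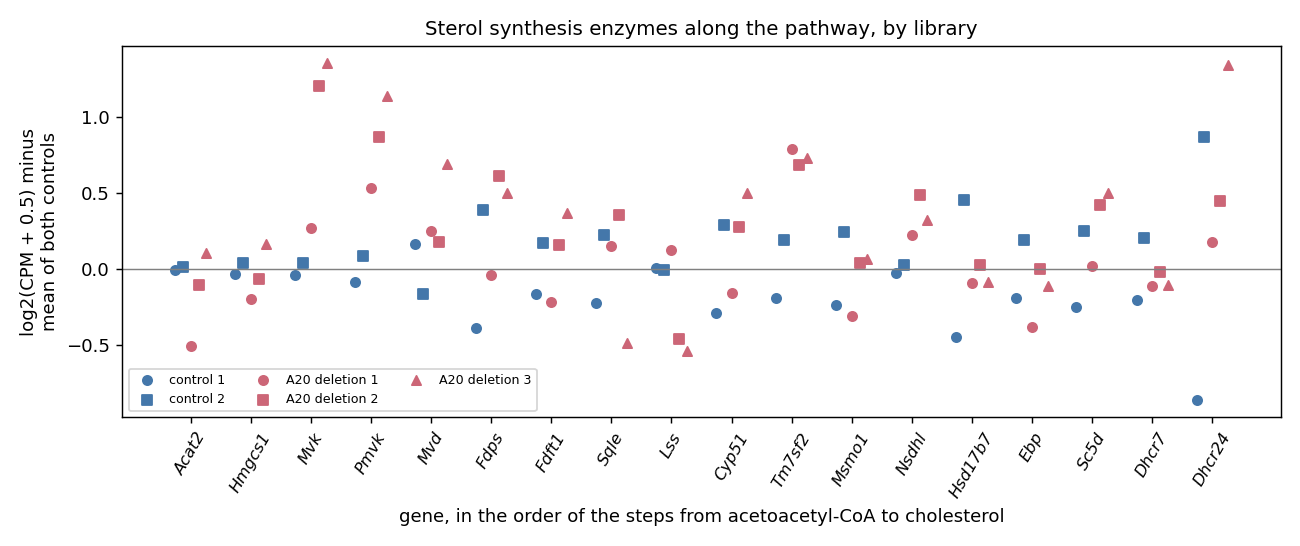
Log2(CPM + 0.5) of 18 sterol synthesis enzymes in each library, relative to the mean of both controls (vertical axis), in pathway order (horizontal axis, without Idi1, which failed the filter; not every step is drawn). A20-deleted replicates 2 and 3 are above the controls for Mvk and Pmvk and below them for Lss, and replicate 1 is nearer to the controls in Mvk.

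Among 12 tested genes that control SREBP edgeR, DESeq2 and limma-voom each called 0. Their median log2 fold change was -0.26, beside 0.05 for all genes. At an unadjusted p under 0.05 in edgeR this list had 1 gene lower and 0 higher, where 8.26% of all genes were lower and 12.8% higher. Scap, the escort of SREBP, was at 112.8 ± 2.398 and 87.4 ± 13.2 CPM (edgeR adjusted p = 0.279). Insig2, the second anchor, was at 53.2 ± 1.79 and 42.9 ± 2.11 CPM (edgeR adjusted p = 0.289). Srebf1, which encodes SREBP1, was at 80.5 ± 3.52 and 84.8 ± 13.7 CPM (edgeR adjusted p = 0.831).

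Of 21 further fatty acid synthesis genes tested, edgeR, DESeq2 and limma-voom each called 0. In edgeR 0 of the 21 had an unadjusted p under 0.05, where 21.0% of all genes did. Their median log2 fold change was 0.07, beside 0.05 for all genes. Fasn, fatty acid synthase, was at 57.8 ± 9.61 and 39.6 ± 15.4 CPM (edgeR adjusted p = 0.341), and Acaca, the carboxylase that precedes it, at 5.98 ± 0.389 and 6.44 ± 2.53 CPM (edgeR adjusted p = 0.878). The 3 genes with the smallest p were the desaturases Fads1 and Fads2 and the carboxylase regulator Mid1ip1. Fads1 was at 207.1 ± 16.6 and 165.8 ± 12.6 CPM (edgeR adjusted p = 0.284) and Fads2 at 3.45 ± 1.56 and 7.86 ± 4.86 CPM (edgeR adjusted p = 0.321). Mid1ip1 was at 158.2 ± 2.04 and 126.8 ± 14.8 CPM (edgeR adjusted p = 0.304).

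Of 15 tested genes of oxysterol and LXR biology, another sterol-sensing arm, 1 rose and 0 fell in edgeR, and DESeq2 called 2 higher. Over all genes 2.08% rose and 0.507% fell in edgeR, and DESeq2 called 9.07%. At an unadjusted p under 0.05 in edgeR, 3 of the 15 were higher and 2 lower, where 12.8% of all genes were higher and 8.26% lower. The gene that rose was Npc2, which carries cholesterol out of lysosomes, from 682.8 ± 10.4 to 1263 ± 29.6 CPM (1.85-fold, log2 fold change 0.89, SE 0.14, edgeR adjusted p = 0.0261). It did not pass without either control, without A20-deleted replicate 2 or 3, or with the replicate number as a block, although the log2 fold change stayed between 0.82 and 0.92 in those fits. Npc1, its partner in moving cholesterol out of lysosomes, was at 459.0 and 666.8 CPM in both controls and 441.0, 292.4 and 295.0 CPM in the A20-deleted libraries, below both controls in each (log2 fold change -0.72, SE 0.25, edgeR adjusted p = 0.184). Ch25h makes an oxysterol that lowers SREBP processing. It had 2 and 8 counts in the controls and 48, 16 and 39 in the A20-deleted libraries. All 3 A20-deleted libraries were above both controls, but the log2 fold change of 3.20 (SE 0.87, 95% interval 1.14 to 5.25) did not pass with edgeR (adjusted p = 0.118) and did with DESeq2 (adjusted p = 0.00746). Nr1h3, which encodes the oxysterol receptor LXR alpha, was at 0.925 and 0.770 CPM in both controls and 3.03, 1.49 and 4.48 CPM in the A20-deleted libraries (edgeR adjusted p = 0.188). Mylip, a ubiquitin ligase induced by LXR, was at 343.8 ± 29.5 and 224.4 ± 47.2 CPM (edgeR adjusted p = 0.17). The cholesterol exporter Abca1 was at 570.3 and 538.5 CPM in both controls, 838.1 CPM in A20-deleted replicate 1 and 251.9 and 316.2 CPM in replicates 2 and 3 (edgeR adjusted p = 0.781). Over all 4 lists edgeR called 1 of 65 tested genes, beside 2.59% of all genes. Without A20-deleted replicate 1, where the groups coincide with the mitochondrial shares, it called 9 higher and 15 lower of the 65, beside 32.4% of all genes.

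**Figure D5:**
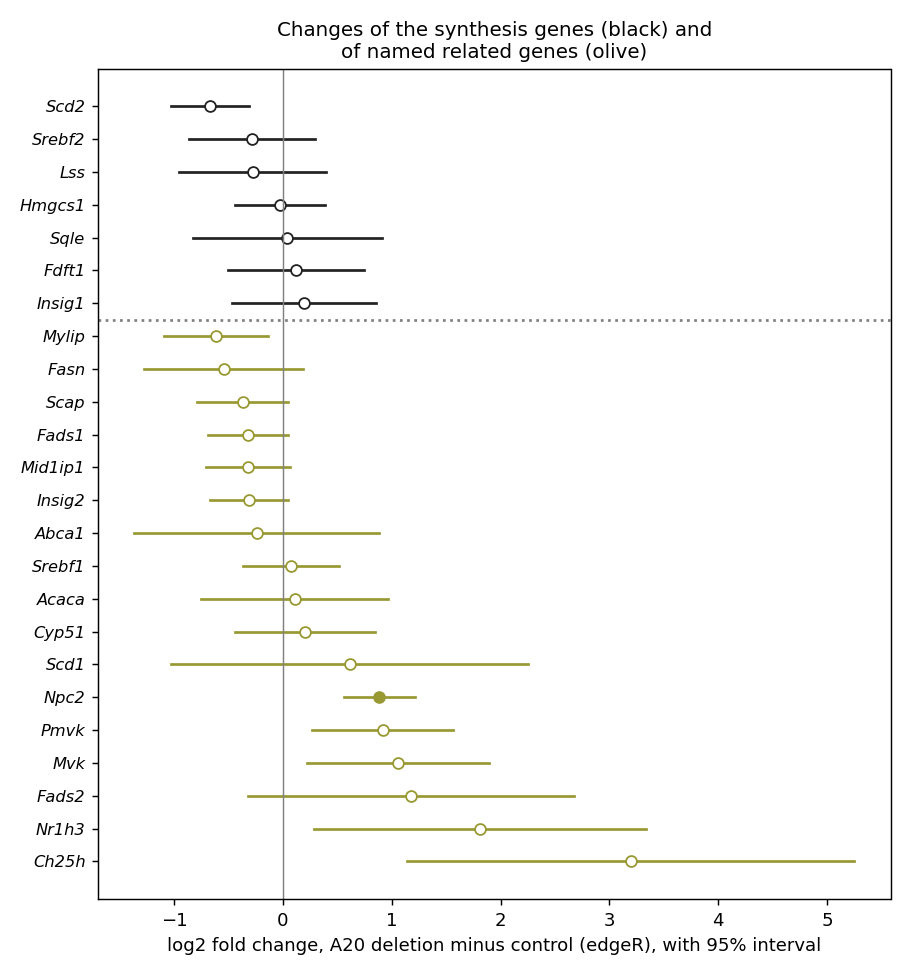
Log2 fold change (A20-deleted minus control, edgeR) with its 95% interval for the 7 tested members (black) and 17 named related genes (olive); a filled symbol passed an adjusted p of 0.05. Npc2 alone among these genes is filled, and of the members only the interval of Scd2, from -1.03 to -0.31, leaves out 0.

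The genes whose pattern over the 5 libraries was most like the mean of the 7 tested members were P4hb, Ric8a, Ptdss1, Cdkn2aipnl and Plpp1. Likeness was the root mean square distance between centred log2(CPM + 0.5) profiles, which ran from 0.01 for P4hb to 0.03 for Plpp1 among 8297 candidate genes. The mean profile itself was nearly flat, from -0.07 in A20-deleted replicate 2 to 0.20 in control replicate 2, and the members lay farther from it than these genes, at distances between 0.13 for Hmgcs1 and 0.30 for Sqle.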

How the data were processed

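RNA of sorted microglia was sequenced in 2 control and 3 A20-deleted libraries, made by NEBNext Ultra II from 10 ng RNA with a RIN of at least 7.0, per the labels' protocols. The authors deposited raw read counts by Ensembl identifier. Per the submitters' processing notes, STAR 2.4.0j, featureCounts, DESeq2 1.22.1 and build GRCm38 are listed without roles. The sources used here give neither the annotation, the strand setting nor the handling of multi-mapping reads, so genes with similar copies and antisense partners are uncertain. Symbols, positions and exon lengths came from GENCODE M21 (GRCm38), which matched 40340 of 41388 identifiers.

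Counts were tested in R 4.3.3 with edgeR 4.0.16: filterByExpr (minimum count 10, minimum total 15), TMM scaling, quasi-likelihood test, two-sided, no covariate, Benjamini-Hochberg adjustment over 12240 genes. CPM use the scaled library totals. The SE is the size of the fitted coefficient divided by the square root of F, and 95% intervals follow from it; the procedure was tested on simulated data. Counting floors cover counting error only, since reads carried no molecular identifiers. Alternatives were other scalings, filters and tools (DESeq2 1.42.0, limma 3.58.1), covariates, a length correction and left-out libraries.

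Genes named are the 8 members, Tnfaip3, 12 related genes fixed by name and, per list, called genes and the 3 smallest p; others (Scd3, Scd4, Acacb, Elovl7, Ctsb, Npc1, the marker genes) were chosen after their values were seen. A few genes of these lists are not reported here. The members and lists were chosen with earlier results of these data known.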

Additional observations from a re-analysis of the deposited data

Results flagged for a closer look

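Lss and Srebf2 pointed in opposite directions in the libraries of the 2 sexes, as read from Xist and Y-linked counts. For Lss the log2 ratio was 0.12 in the female pair (A20-deleted replicate 1 against control replicate 1) and -0.49 and -0.57 for A20-deleted replicates 2 and 3 against control replicate 2. The interaction of sex and group, a fit added after the data were seen, was -0.65 (male minus female, edgeR adjusted p = 0.551). For Srebf2 the ratios were 0.10, -0.78 and -0.32, and the interaction was -0.63 (edgeR adjusted p = 0.266). Neither interaction passed. Sex cannot be told apart from the higher mitochondrial shares of A20-deleted replicates 2 and 3.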

How the results depend on the processing

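Scd2 kept its direction under all 18 alternatives, and no member was called higher under any of them. Members called lower numbered 0 as reported and 1 with DESeq2, with no filter and with sex as a term, Scd2 each time. Leaving out a library in turn gave 0 to 2 members lower, the 2 being Scd2 and Srebf2 without A20-deleted replicate 1. Over all genes tested, 255 were higher and 62 lower as reported. There were 1048 higher and 653 lower with no filter, 563 and 261 with sex as a term, 744 and 366 with DESeq2, 166 higher with limma-voom, and 32 lower with the replicate block. Leaving out a library in turn gave 0 to 1902 genes higher and 0 to 2021 lower; with control replicate 2 left out no gene passed in edgeR (1323 had an unadjusted p under 0.05). Among the 65 tested related genes 1 was higher and 0 lower as reported, against 4 and 2 with no filter, 2 higher with DESeq2 and 0 higher with the replicate block. Leaving out a library in turn gave 0 to 9 higher and 0 to 15 lower, most without A20-deleted replicate 1. The cause was not tested. Over all genes the log2 fold changes had a median of 0.05 as reported, 0.11 with upper quartile scaling and 0.17 with no filter.

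For the 27 genes followed singly the alternatives gave 484 values. Direction and side of the threshold held in 422, 21 passed anew (14 of them without A20-deleted replicate 1), 5 no longer passed (all Npc2), and 36 that had not passed changed sign. With A20-deleted replicates 2 and 3 omitted (the single A20-deleted library is assumed to vary like the controls) the log2 fold changes were 0.61 for Abca1, -0.18 for Cyp51, -0.35 for Fads2, -0.23 for Fdft1, -0.21 for Insig1, 0.14 for Lss, -1.61 for Scd1 and 0.088 for Srebf2. With the mitochondrial share as a term they were 0.47 for Abca1, -0.075 for Cyp51, -0.00083 for Fads2, -0.14 for Fdft1, -0.14 for Insig1, 0.055 for Lss, -1.36 for Scd1 and 0.082 for Srebf2. Hmgcs1 was at 0.025 with at least 5 CPM in 2 libraries and 0.041 with upper quartile scaling, and Sqle at -0.0020 with library size alone. Leaving out a library in turn gave ranges of -0.99 to 0.066 for Abca1, -0.29 to 0.29 for Acaca, -0.11 to 0.48 for Cyp51, -0.091 to 0.25 for Fdft1, -0.12 to 0.024 for Hmgcs1, -0.12 to 0.47 for Insig1, -0.23 to 0.27 for Sqle and -0.013 to 0.22 for Srebf1.

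The replicate number as a replicate block gave 260 genes in place of 317 and no call among the members. Under the block Scd2 was at -0.73 (edgeR adjusted p = 0.164), Fdft1 at -0.029, Scd1 at -0.0081 and Srebf1 at -0.020, and Npc2 no longer passed. Deviations from the group means correlated at 0.27 for both replicates 1 and 0.18 for both replicates 2 over 12240 genes, and control replicate 2 correlated with A20-deleted replicate 3 at 0.22. These are the pairs of the same sex by Xist and Y-linked counts, and with 2 controls the other pairs give the same values with a minus sign. The labels do not say that a number marks a shared litter or batch, so the numbers were not taken as a pairing. Depth limits Idi1, at 1 to 9 counts, and Sqle, whose interval spans ratios of 0.563 to 1.88.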

Other observations

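A pair of fatty acid genes stood apart in 1 library, chosen after their values were seen. Elovl7, a fatty acid elongase, had 102 counts in A20-deleted replicate 3 and between 0 and 14 in the other libraries. Acacb, the mitochondrial acetyl-CoA carboxylase, had 48 counts there and between 2 and 8 in the others. Elovl7 did not pass (edgeR adjusted p = 0.323) and Acacb failed the filter.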
